A study of Mus musculus with 4 samples.

Results

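The 10 genes described here encode cytokines by which myeloid cells act on lymphocytes, together with the receptor chain that presents one of them and the brakes on the others. They are Il15, Il15ra, Il12a, Il12b, Il18, Il18bp, Il27, Ebi3, Il10 and Tgfb1. They were chosen by name for these roles, not by their levels, out of 32285 genes measured, and all 10 had UMIs (unique transcript counts) in every tumour. Levels are given as CPM, the UMIs of a gene per 1000000 UMIs of the summed cells.

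IL-15 keeps natural killer (NK) cells and CD8+ T cells alive and active, and is shown to them on the surface of the producing cell by its own receptor chain, IL-15Rα. IL-12, a pair of the p35 chain (Il12a) and the p40 chain (Il12b), and IL-18 together drive interferon-γ in NK and T cells, and IL-18 binding protein (Il18bp) is an interferon-γ-induced decoy that holds IL-18 away from its receptor. IL-27 is a pair of p28 (Il27) and EBI3, and both widens and restrains T cell responses. IL-10 and TGF-β1 dampen T cell and NK cell activation, and macrophages are a known source of both.

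CD45+ cells were sorted from YUMM1.7 melanomas, a mouse line with mutant Braf that here expressed ovalbumin, grown in Rag2-/- mice, hosts without T or B cells. All hosts received OT-1 T cells, CD8+ T cells specific for an ovalbumin peptide, on day 7, and tumours were taken on day 10, 72 h after the transfer. The 4 groups were NTT, a line naive to targeted therapy, RTT, a line that had acquired resistance to it, RTT_ROSA26, a resistant line with a control guide against Rosa26, and RTT_PTGS12KO, a resistant line with Ptgs1 and Ptgs2, the cyclooxygenase genes of prostaglandin synthesis, knocked out in the cancer cells. The knockout was in the injected cells only, not in the sorted CD45+ cells. Each group is 1 sample. The labels give 1 tumour per condition where the study's figure legends describe pooled tumours, which was not settled.

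The samples held 6836 to 10296 cells and 69332486 to 146829369 UMIs, with median UMIs per cell of 7293 in NTT and 12219 to 13280 in the others. With 1 sample per group there is no replicate check and no test was made. A difference past 2-fold was counted as a call, and every interval is an exact 95% interval (Poisson for a level, Clopper-Pearson for a share, conditional for a ratio) that covers counting error only, not the spread between mice. The 17 cell type names are the authors'. Of the names used here, TAM_H2Ab1, Macro and Myofibrobl had none of their markers among their 10 leading genes, although all of those markers were detected, and Infl_Mono was led by interferon-stimulated genes, with more markers of the interferon list than of monocytes among the 10. Because cell types were made by clustering on expression, levels between them are a description. Monocytes numbered 6619 in NTT, 522 for RTT, 144 for RTT_ROSA26 and 4015 for RTT_PTGS12KO, and macrophages 308, 6734, 5993 and 5207. In the sum over all cells, a shift in the number of cells of a type and a change of RNA per cell cannot be told apart, so results are also given within monocytes or macrophages and with cell types held at equal shares, where the UMIs allow it. Only types with at least 20 cells in both tumours enter the equal shares, 8 of 17 for NTT against RTT (without TAM_C1q, NK cells or DC3), 11 for the knockout against its control and 10 for the control against RTT (both without DC3), so those values also differ from the sum in the types they cover. Equal means equal between the tumours compared: each type was weighted by its UMIs pooled over all tumours, so types do not weigh the same.

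On GRCm38, Il15 lies on the minus strand at chr8:82331632-82403222, Il15ra at chr2:11705290-11734317, Il12a at chr3:68690644-68698547 and Il12b at chr11:44400063-44414033. Il18 lies at chr9:50554827-50581840, Il18bp on the minus strand at chr7:102014885-102018690, Il27 on the minus strand at chr7:126589010-126594941 and Ebi3 at chr17:55952640-55957022. Il10 lies at chr1:131019845-131024974 and Tgfb1 at chr7:25687002-25705077. All 10 are protein coding, and those without a stated strand are on the plus strand. Il18, Il18bp, Il27 and Ebi3 each overlap a gene on the opposite strand, and the strand setting of the counting is not given in the sources used here.

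The 250 bases upstream of the start are printed for Il12a and Il12b, the chains of IL-12, and for Il15ra and Il18, the members in which a sequence of the interferon regulatory factor type was found. Sequences are from RefSeq on GRCm38.p6, read 5′ to 3′ on the plus strand at chr3:68690394-68690643 (Il12a, the first of its annotated starts), chr11:44399813-44400062 (Il12b), chr2:11705043-11705289 (Il15ra, also the first of its starts, without the 3 bases that fall in an exon) and chr9:50554450-50554699 (Il18). The starts are those of RefSeq, and that of Il18 lies upstream of the gene start given above. Capitals mark matches to AANNGAAA, the core of the sites that interferon regulatory factors bind, and to the TATA box TATANAA, on either strand.
Il12a: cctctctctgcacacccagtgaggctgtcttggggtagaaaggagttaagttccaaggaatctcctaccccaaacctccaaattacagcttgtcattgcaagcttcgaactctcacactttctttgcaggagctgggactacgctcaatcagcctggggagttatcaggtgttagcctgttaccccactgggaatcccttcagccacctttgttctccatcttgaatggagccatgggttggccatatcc
Il12b: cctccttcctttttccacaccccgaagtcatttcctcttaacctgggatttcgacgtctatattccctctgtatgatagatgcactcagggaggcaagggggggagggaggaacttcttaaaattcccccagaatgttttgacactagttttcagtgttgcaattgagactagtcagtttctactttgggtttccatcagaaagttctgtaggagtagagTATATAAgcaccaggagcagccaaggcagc
Il15ra: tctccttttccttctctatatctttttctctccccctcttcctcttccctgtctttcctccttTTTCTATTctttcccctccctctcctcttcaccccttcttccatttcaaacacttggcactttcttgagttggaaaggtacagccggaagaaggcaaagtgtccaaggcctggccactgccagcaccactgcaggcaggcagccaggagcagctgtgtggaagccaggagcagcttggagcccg
Il18: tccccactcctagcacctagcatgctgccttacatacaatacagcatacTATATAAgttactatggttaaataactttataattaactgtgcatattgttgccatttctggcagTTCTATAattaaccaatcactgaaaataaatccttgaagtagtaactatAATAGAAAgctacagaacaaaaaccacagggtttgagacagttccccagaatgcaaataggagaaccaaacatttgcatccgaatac

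With positions counted back from the start, AANNGAAA was found in Il15ra at -187, on the minus strand, and in Il18 at -87, and in 21.3% of 32851 promoter windows of the same length. TATANAA was found in Il12b at -30, and in Il18 at -201 and, on the minus strand, at -136, and in 10.4% of windows. This sequence was added to the search after the promoters had been read. The full interferon-stimulated response element, a pair of GAAA with any 2 bases between (2.98% of windows), the STAT site TTCNNNGAA (7.02%), the NF-κB site, GGG and TTTCC with any 2 bases between (1.41%), and the cyclic AMP response element TGACGTCA (1.55%) were found in none of the windows of the 7 members that had one. A match describes these letters and no more. Il15, Il27 and Il10 were not in the promoter table, and the window of Il18bp lies in annotated exons and is not printed.

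In the comparison of NTT with RTT, which asks how the immune cells of a therapy-naive tumour differ from those of a resistant one, the stimulating cytokines and their brakes did not part into 2 blocks, since Il18bp, a brake, was higher in NTT with Il15 and Il27. Of the 9 members that passed the filter on low values (at least 1 CPM in the mean of both tumours and 20 UMIs together), 5 were past 2-fold higher in NTT, Il15, Il15ra, Il18bp, Il27 and Ebi3, where 8.48% of all genes tested were. Il10 alone was past 2-fold lower, where 11.9% of all genes were. The median log2 ratio was 1.46 over the members tested and -0.15 over all genes. Scaling by trimmed means (TMM) moved every ratio of this comparison by 0.17, which took Il12b and Il18 past 2-fold too.

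In the comparison of RTT_PTGS12KO with RTT_ROSA26, which asks what changes when the cancer cells lose the cyclooxygenases, 4 of 9 tested members were past 2-fold higher in the knockout tumour, Il15ra, Il12b, Il18bp and Il27, against 4.53% of all genes. Il10 was again the single member past 2-fold lower, against 3.8% of all genes. The median log2 ratio was 0.87 over members and -0.16 over all genes, and TMM scaling moved every ratio by 0.13, which took Il15 just past 2-fold.

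RTT_ROSA26 and RTT, resistant tumours that both keep the cyclooxygenases, gave a yardstick of how far such tumours lie apart. RTT_ROSA26 also carries the control guide, so the yardstick holds any effect of that step as well, which was not tested. None of 8 tested members was past 2-fold higher in RTT_ROSA26, with 0.97% of all genes, and 4 were past 2-fold lower, with 3.03% of all genes. These were Il15ra at a log2 ratio of -1.23 (-1.44 to -1.02), Il18bp at -1.75 (-1.84 to -1.66), Il27 at -1.19 (-1.45 to -0.94) and Il10 at -1.46 (-1.54 to -1.37). Il18 lay at -0.33, and Il15, Ebi3 and Tgfb1 between -0.10 and 0.04. Il15ra, Il18bp, Il27 and Il10 thus differed past 2-fold between resistant tumours that both keep Ptgs1 and Ptgs2. This comparison shares RTT with the first and RTT_ROSA26 with the second, so their values are set side by side only.

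**Figure D1:**
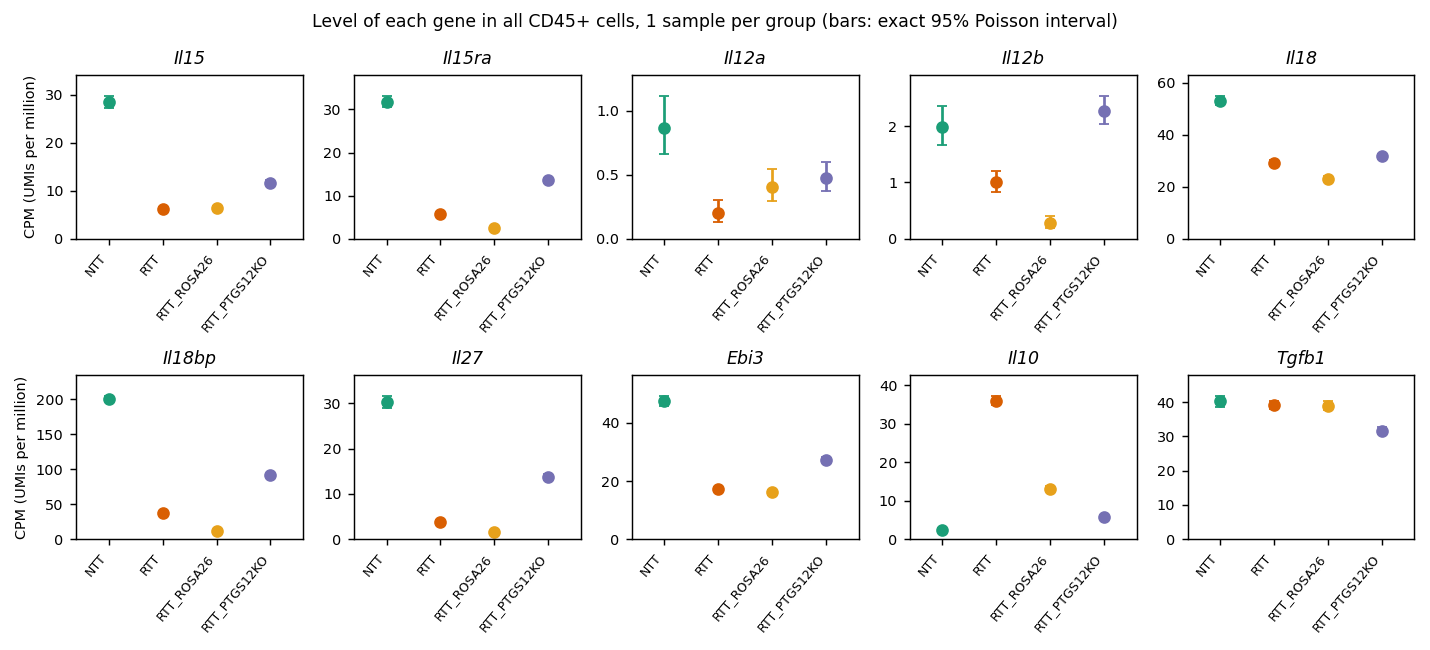
Level of each of the 10 members in each tumour, summed over all CD45+ cells, in CPM on a linear axis from 0 that differs between panels, with exact Poisson 95% intervals (counting error only). Il15, Il15ra, Il18bp, Il27 and Ebi3 are highest in NTT with RTT_PTGS12KO next, Il10 is highest in RTT, and Tgfb1 lies between 31.7 and 40.2 CPM in all tumours.

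**Figure D2:**
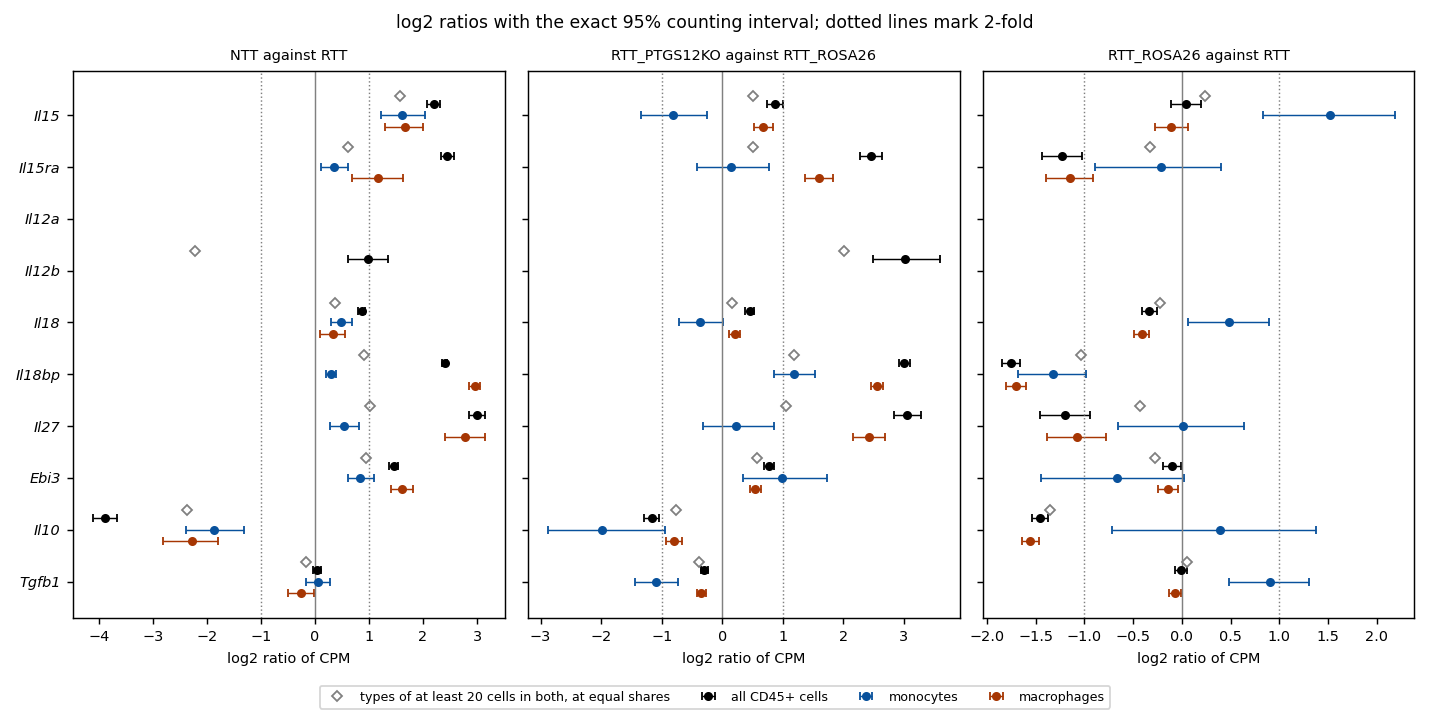
log2 ratio of each member in the 3 comparisons, in all CD45+ cells, monocytes and macrophages, with 95% counting intervals, for members past the filter, and, as grey diamonds, with cell types of at least 20 cells in both tumours held at equal shares (no interval). The diamonds of Il15ra, Il18bp and Il27 lie nearer to 0 than the ratios in all cells, for Il18bp at 0.91 against 2.40 in NTT against RTT.

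Il15 over all cells stood at 28.4 CPM (27.2 to 29.7) in NTT, 6.20 (5.76 to 6.67) for RTT, 6.39 (5.92 to 6.88) for RTT_ROSA26 and 11.7 (11.1 to 12.3) for RTT_PTGS12KO. NTT was the highest, the knockout tumour lay between, and the resistant tumours with the cyclooxygenases were within counting error of each other. NTT was above RTT by a log2 ratio of 2.20 (2.07 to 2.32), and the knockout above its control by 0.87 (0.74 to 1.00). With cell types at equal shares these became 1.58 and 0.51. Within monocytes NTT was above RTT by 1.61 (1.22 to 2.04) and within macrophages by 1.66 (1.29 to 2.01).

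By cell type, Infl_Mono held Il15 at 68.8 CPM in NTT, 25.9 for RTT, 47.0 for RTT_ROSA26 and 44.9 for RTT_PTGS12KO. Neutrophils held it at 60.2, 43.8, 36.3 and 55.6 in the same order, a level as high as in Infl_Mono, so that the ranges over the 4 tumours overlapped. Monocyte_1, the larger group of monocytes, stood at 22.5, 5.51, 9.70 and 13.8, and TAM_C1q, the largest group of macrophages in RTT, at 6.81, 6.34 and 7.58 in the 3 resistant tumours. NTT had only 12 TAM_C1q cells. Not all macrophages were as even as TAM_C1q: in Ctsk_Macro the knockout tumour stood at 29.2 CPM on 113 UMIs against 4.66 on 40 in RTT_ROSA26, a log2 ratio of 2.65 (2.12 to 3.21).

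The within-type comparisons of Il15 did not all follow the sum. In macrophages RTT_PTGS12KO was above RTT_ROSA26 by a log2 ratio of 0.68 (0.52 to 0.84). In monocytes it was below it, at -0.82 (-1.34 to -0.25), with 17.5 CPM against 30.9. The 144 monocytes of RTT_ROSA26 were mostly Infl_Mono (86 cells, with 54 of Monocyte_1), while those of the knockout tumour were mostly Monocyte_1 (3347 of 4015). Within Infl_Mono the log2 ratio was -0.06 (-0.64 to 0.57), and within Monocyte_1 0.51 (-0.86 to 2.39), which rests on 4 UMIs in RTT_ROSA26. Against RTT, Il15 in monocytes was also higher in RTT_ROSA26, at 1.52 (0.83 to 2.18), but the monocytes of RTT were mostly Monocyte_1 (384 of 522), and the ratio was within 2-fold in each type, at 0.86 (0.07 to 1.64) in Infl_Mono and 0.82 (-1.19 to 2.39) in Monocyte_1.

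Il15ra, the chain that presents IL-15 in trans, stood at 31.7 CPM (30.4 to 33.1) in NTT, 5.80 (5.37 to 6.26) for RTT, 2.48 (2.19 to 2.79) for RTT_ROSA26 and 13.5 (12.9 to 14.1) for RTT_PTGS12KO. The order of the tumours was that of Il15 except that RTT and RTT_ROSA26 differed beyond counting error. On the log2 scale the ratio of NTT to RTT came to 2.45 (2.33 to 2.58) and that of the knockout to its control to 2.45 (2.27 to 2.64), but 0.60 and 0.51 with cell types at equal shares. In monocytes Il15ra stood at 36.9 CPM in NTT, 29.0 for RTT, 24.9 for RTT_ROSA26 and 27.6 for RTT_PTGS12KO, all within 2-fold of each other. The value for RTT_ROSA26 rests on 25 UMIs and ran from 7.44 to 46.2 CPM between droplet loads, and with a load left out the log2 ratio of the knockout to it ran from -0.21 to 1.40 and that of RTT_ROSA26 to RTT from -1.32 to 0.03. The mix of monocytes differs here too, and the knockout was above its control in Infl_Mono, at 1.04 (0.24 to 1.97), and not in Monocyte_1, at -0.22 (-1.03 to 0.74), on 13 and 12 UMIs in RTT_ROSA26. In macrophages Il15ra stood at 10.6, 4.71, 2.12 and 6.38, and the knockout was above its control by a log2 ratio of 1.59 (1.36 to 1.83). By type the knockout was past 2-fold above its control in TAM_cycling and Ctsk_Macro. It was within 2-fold in TAM_C1q, on 75 and 67 UMIs, and in TAM_Spp1, on 52 and 27 UMIs. TAM_H2Ab1 numbered 364 cells in the knockout and 11 in its control. Over all macrophages NTT was above RTT by 1.17 (0.68 to 1.62), or 0.88 to 1.42 with a load left out. But in TAM_H2Ab1, the leading macrophage type of NTT, NTT was below RTT by -1.47 (-2.47 to -0.49), with 8.75 CPM against 24.3. In TAM_cycling NTT was above by 1.62 (0.86 to 2.33), with 14.7 against 4.78. DC3, the CCR7+ dendritic cells, held Il15ra at 109 CPM in NTT and 88.3 in RTT_PTGS12KO, the tumours with more than 14 such cells.

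Il12a, the p35 chain, was rare in every tumour: 60 UMIs in NTT, 24 for RTT, 45 for RTT_ROSA26 and 70 for RTT_PTGS12KO, or 0.865 CPM (0.66 to 1.11), 0.206 (0.132 to 0.306), 0.408 (0.298 to 0.546) and 0.477 (0.372 to 0.602). It failed the filter in each comparison. NTT had the highest level. In RTT_PTGS12KO 18 of the 70 UMIs came from 1 cDC2 cell, and without the cell with the most Il12a UMIs in each tumour (3 UMIs in RTT_ROSA26) the log2 ratio to RTT_ROSA26 went from 0.22 to -0.11. Neutrophils held Il12a at 6.88 CPM in NTT, 4.65 for RTT, 4.81 for RTT_ROSA26 and 4.87 for RTT_PTGS12KO, on 7 to 11 UMIs each.

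Il12b, the p40 chain shared by IL-12 and IL-23, stood at 1.99 CPM (1.67 to 2.35) in NTT, 1.01 (0.837 to 1.21) for RTT, 0.281 (0.191 to 0.399) for RTT_ROSA26 and 2.27 (2.04 to 2.53) for RTT_PTGS12KO. The knockout tumour was above RTT_ROSA26 by a log2 ratio of 3.02 (2.48 to 3.6). Equal shares leave out DC3 in this comparison, and with it most Il12b. NTT was above RTT by 0.98 (0.61 to 1.34), but with only cells of over 1500 genes and below 10% of mitochondrial UMIs the sign turned, at -0.25. With cell types at equal shares, where DC3 had too few cells in RTT to enter, it was -2.22. The value of RTT at equal shares came from TAM_cycling alone, where 5 cells held 35 Il12b UMIs, 21 of them in 1 cell. Without the cell with the most Il12b UMIs in each tumour the ratio in all cells was 1.60. RTT_ROSA26 was below RTT at -1.85, under the filter on low values, and the ratio ran from -2.97 to -0.96 with a droplet load left out.

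DC3 held most Il12b UMIs in NTT (86.2%), RTT_ROSA26 (67.7%) and RTT_PTGS12KO (88.0%), and 49.2% in RTT. Il12b is among the 10 leading genes of DC3, so its presence there is no result. These cells numbered 89 in NTT, 12 for RTT, 14 for RTT_ROSA26 and 81 for RTT_PTGS12KO, and their Il12b level was 188, 495, 177 and 393 CPM. The order follows single cells: in RTT 56 of 58 UMIs came from 1 of the 12 cells, and without it the level was 19.0 CPM, and in RTT_ROSA26 10 of 21 came from 1 cell, without which it was 100.1. Over all cells, those with 10 or more Il12b UMIs numbered 4 in NTT, 3 for RTT, 1 for RTT_ROSA26 and 10 for RTT_PTGS12KO. They held 56.5% of the Il12b UMIs in NTT, 77.1% in RTT and 68.3% in the knockout tumour. The counting intervals treat UMIs as independent and do not cover such clumping.

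**Figure D3:**
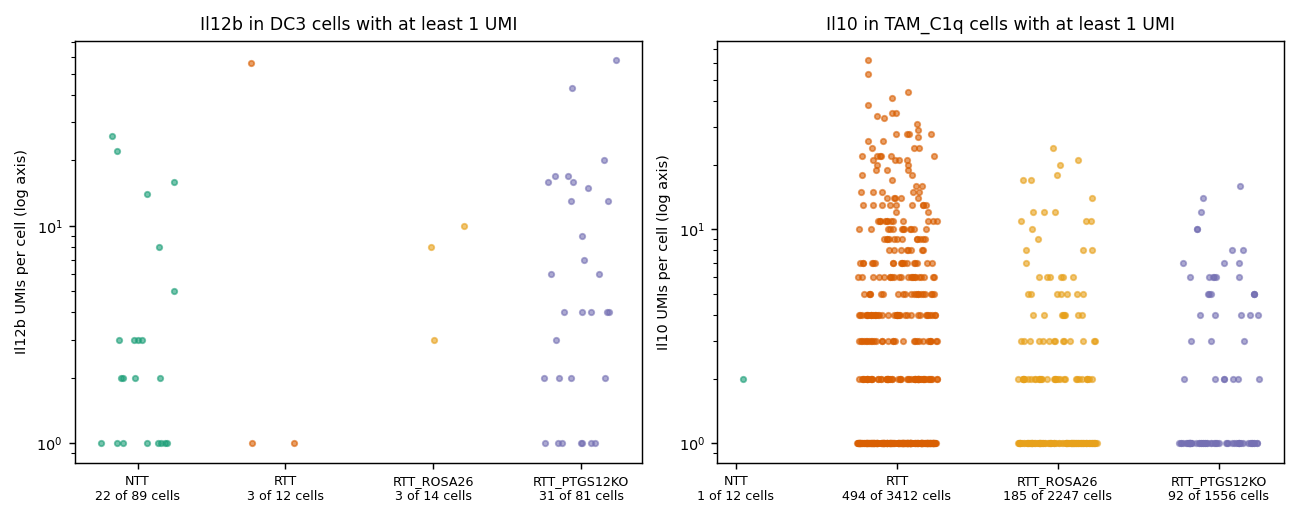
UMIs per cell on a log axis, by tumour, of Il12b in DC3 (left) and Il10 in TAM_C1q (right), each point a cell with at least 1 UMI, spread sideways at random. In RTT a single DC3 cell holds 56 Il12b UMIs, and 494 of 3412 TAM_C1q cells of RTT hold Il10, against 92 of 1556 in RTT_PTGS12KO.

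Il18, a cytokine made as a precursor that caspase-1 cuts, stood at 53.3 CPM (51.5 to 55.0) in NTT, 29.2 (28.2 to 30.2) for RTT, 23.2 (22.3 to 24.1) for RTT_ROSA26 and 31.7 (30.8 to 32.6) for RTT_PTGS12KO. The differences were beyond counting error, but none of the 3 comparisons reached 2-fold without TMM scaling, which took NTT against RTT just past it. NTT exceeded RTT at a log2 ratio of 0.87 (0.80 to 0.93), and the tumour with the knockout exceeded its control at 0.45 (0.38 to 0.52). With cell types at equal shares they were 0.38 and 0.16. In monocytes Il18 was at 64.7 CPM in NTT, 46.3 for RTT, 64.9 for RTT_ROSA26 and 50.4 for RTT_PTGS12KO, and in macrophages at 38.6, 30.7, 23.0 and 26.5. Infl_Mono held Il18 at 95.6 CPM in NTT, 76.2 for RTT, 88.7 for RTT_ROSA26 and 86.0 for RTT_PTGS12KO, so its tumours lay closer together there than in the sum. RNA level says nothing of how much precursor was cut.

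Il18bp, the decoy of IL-18, differed far more than its ligand. It stood at 201 CPM (197 to 204) in NTT, 38.1 (37.0 to 39.2) for RTT, 11.3 (10.7 to 12) for RTT_ROSA26 and 91.2 (89.6 to 92.7) for RTT_PTGS12KO. On the log2 scale the ratio of NTT to RTT came to 2.40 (2.35 to 2.45) and that of the knockout to its control to 3.01 (2.93 to 3.09), and 0.91 and 1.18 with cell types at equal shares. In monocytes it was 234 CPM in NTT, 190 for RTT, 75.8 for RTT_ROSA26 and 173 for RTT_PTGS12KO, with a log2 ratio of the knockout to RTT_ROSA26 of 1.19 (0.86 to 1.53). The monocytes of RTT_ROSA26 were mostly Infl_Mono and those of the knockout tumour mostly Monocyte_1, and within Monocyte_1 the ratio was 0.50 (0.11 to 0.92), with 179 CPM against 126, and within Infl_Mono 1.64 (1.06 to 2.29), with 130.3 against 41.7 on 24 UMIs. In macrophages it was 255, 32.7, 10.1 and 59.0.

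The macrophages compared differ in kind, since TAM_H2Ab1 led in NTT (192 of 308 cells) and TAM_C1q in RTT (3412 of 6734), and Il18bp is among the leading genes of TAM_H2Ab1. Over all macrophages NTT was above RTT by a log2 ratio of 2.96 (2.86 to 3.06), while within TAM_H2Ab1 it was above by 0.25 and within TAM_cycling by 2.64. TAM_cycling, which does not have Il18bp among its leading genes, held 192 CPM in NTT, 30.8 for RTT, 8.80 for RTT_ROSA26 and 63.9 for RTT_PTGS12KO. After thinning every cell to 3000 UMIs, Il18bp was found in 51.6% of NTT macrophages, 8.06% in RTT, 2.74% in RTT_ROSA26 and 13.4% in RTT_PTGS12KO (85.7%, 24.4%, 11.2% and 39.97% unthinned), with 2, 26, 38 and 12 cells too shallow to thin. NK cells, which served as a gauge of free RNA, had it in 3.40% in NTT, 4.35% in RTT_ROSA26 (1 of 23 cells) and 4.98% in RTT_PTGS12KO, so the share in RTT_ROSA26 macrophages is not separated from that in NK cells. The levels there were 10.1 CPM in macrophages and 2.17 (0.0551 to 12.1) in NK cells, the latter on 1 UMI. Median UMIs per cell before thinning were 11598 to 15570 in macrophages and 7669 to 15524 in NK cells.

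Il27, the p28 chain, stood at 30.2 CPM (29.0 to 31.6) in NTT, 3.78 (3.43 to 4.15) for RTT, 1.65 (1.42 to 1.91) for RTT_ROSA26 and 13.8 (13.2 to 14.4) for RTT_PTGS12KO. NTT lay above RTT by 3.0 (2.85 to 3.15) on the log2 scale and the knockout above its control by 3.06 (2.84 to 3.28). With cell types at equal shares the log2 ratios were 1.03 and 1.05. In monocytes the level was 37.5, 25.7, 25.9 and 30.5 CPM, within 2-fold in every comparison. In macrophages it was 20.4, 2.97, 1.41 and 7.53, and the knockout was above its control by 2.42 (2.16 to 2.69). Thinned to 3000 UMIs, 6.86% of macrophages in NTT, 0.954% for RTT, 0.588% for RTT_ROSA26 and 1.87% for RTT_PTGS12KO had a UMI, against 0.296% of NK cells in NTT, 0 of 23 in RTT_ROSA26 (an interval up to 14.8%) and 0.332% in RTT_PTGS12KO. In RTT_ROSA26 the share in macrophages is thus not separated from that in NK cells.

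Ebi3, the partner of p28, differed less. It stood at 47.5 CPM (45.9 to 49.1) in NTT, 17.3 (16.5 to 18) for RTT, 16.1 (15.3 to 16.8) for RTT_ROSA26 and 27.3 (26.5 to 28.2) for RTT_PTGS12KO. NTT exceeded RTT at a log2 ratio of 1.46 (1.38 to 1.54), and the tumour with the knockout exceeded its control at 0.77 (0.69 to 0.85), and 0.95 and 0.57 with cell types at equal shares. In macrophages Ebi3 was 53.4 CPM in NTT, 17.5 for RTT, 15.8 for RTT_ROSA26 and 23.1 for RTT_PTGS12KO, and in monocytes 54.1, 30.2, 19.0 and 37.8. The monocyte value of RTT_ROSA26 rests on 19 UMIs and ran from 9.73 to 31.1 CPM between loads, and with a load left out the log2 ratio of the knockout to it ran from 0.60 to 1.48. Ebi3 was also held by neutrophils and cDC2, at 24.8 to 55.0 CPM over the 4 tumours.

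Il10 ran the other way. It stood at 2.45 CPM (2.10 to 2.85) in NTT, 36.1 (35.0 to 37.2) for RTT, 13.1 (12.5 to 13.8) for RTT_ROSA26 and 5.88 (5.49 to 6.28) for RTT_PTGS12KO. NTT was below RTT by a log2 ratio of -3.88 (-4.11 to -3.66) and the knockout below its control by -1.16 (-1.28 to -1.04). The yardstick of -1.46 between RTT_ROSA26 and RTT was larger in size than the difference between the knockout and its control. With cell types at equal shares the ratios were -2.37, -0.76 and -1.36, so the knockout against its control was then within 2-fold. The value of -2.37 leans in part on the 20 TAM_Spp1 cells of NTT, which held only 193901 UMIs of all genes.

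Within TAM_C1q, Il10 was 55.1 CPM in RTT, 16.2 in RTT_ROSA26 and 11.1 in RTT_PTGS12KO, and within TAM_Spp1 29.1, 14.7 and 7.24, with 10.3 in the 20 such cells of NTT. TAM_cycling stood at 1.40 in NTT, 27.3 for RTT, 13.3 for RTT_ROSA26 and 6.65 for RTT_PTGS12KO. The order RTT, RTT_ROSA26, RTT_PTGS12KO was thus that of all 3 types. Over all macrophages the knockout was below its control by -0.80 (-0.94 to -0.67), within 2-fold. Il10 was carried by a minority of cells: 788 of 6734 macrophages in RTT had a UMI, and the 121 with 10 or more held 56.3% of the UMIs, with up to 62 in a cell. In RTT_ROSA26 481 of 5993 had a UMI, and 30 cells with 10 or more held 31.5%.

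In monocytes Il10 stood at 2.29 CPM (1.89 to 2.74) in NTT, 8.36 (6.0 to 11.3) for RTT, 10.98 (5.48 to 19.6) for RTT_ROSA26 and 2.76 (2.28 to 3.31) for RTT_PTGS12KO. The log2 ratio of NTT to RTT was -1.87 (-2.39 to -1.32). That of the knockout to RTT_ROSA26 was -1.99 (-2.88 to -0.95), but the 11 UMIs of RTT_ROSA26 came from 3 cells, 8 of them from 1 cell, and without the cell with the most Il10 UMIs in each tumour (8 of 115 in the knockout) the ratio was -0.24, while without the third droplet load it was 0.60. The value for RTT_ROSA26 monocytes therefore rests on 1 cell. In the NK cells of RTT all 31 Il10 UMIs came from 1 of 13 cells, which held 39481 UMIs and 80 UMIs of the macrophage gene C1qa.

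Tgfb1, made by nearly all leukocytes as a latent protein, was the member that differed least. It stood at 40.2 CPM (38.7 to 41.7) in NTT, 39.2 (38.1 to 40.4) for RTT, 39.0 (37.9 to 40.2) for RTT_ROSA26 and 31.7 (30.8 to 32.7) for RTT_PTGS12KO. NTT against RTT gave a log2 ratio of 0.04 (-0.03 to 0.10), or -0.16 with cell types at equal shares, and the ratio was -0.30 (-0.36 to -0.24) for the knockout against its control. The sign of the difference between NTT and RTT thus turned with the shares of cell types, and its interval includes 0. In monocytes RTT_ROSA26 stood at 70.8 CPM (55.3 to 89.4) against 39.6 in NTT, 37.9 in RTT and 33.0 in RTT_PTGS12KO, and the knockout was below it by -1.10 (-1.45 to -0.74). The Infl_Mono of RTT_ROSA26 held Tgfb1 at 88.7 CPM, those of the other tumours at 46.3 to 49.5. The monocytes compared differ in mix, and within each type the knockout was within 2-fold of its control, at -0.94 (-1.38 to -0.47) in Infl_Mono and -0.23 (-0.96 to 0.61) in Monocyte_1.

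Counted within populations, monocytes showed few calls. For NTT against RTT, 1 of 8 tested members was past 2-fold higher in monocytes (Il15, with 3.34% of all genes) and 1 lower (Il10, with 4.01%). In macrophages 5 of 8 were higher (6.48% of all genes), Il15, Il15ra, Il18bp, Il27 and Ebi3, and 1 was lower, Il10 (6.65%). By type these calls differed: within TAM_H2Ab1 Il15ra was past 2-fold lower and Il18bp, Il27 and Ebi3 were within 2-fold, while within TAM_cycling these 4 were past 2-fold higher and Il15 was within 2-fold, at 0.91. For the knockout against its control, 1 of 8 was higher in monocytes (7.16% of all genes), Il18bp, and 2 were lower (6.86%), Il10 and Tgfb1, of which Tgfb1 was within 2-fold in both Infl_Mono and Monocyte_1. In macrophages 3 were higher (2.94%), Il15ra, Il18bp and Il27, and 0 lower (1.94%), and of these Il15ra was within 2-fold in TAM_C1q and TAM_Spp1. For RTT_ROSA26 against RTT, 1 was higher in monocytes, Il15 (2.71%), and 1 lower, Il18bp (6.5%). By type Il15 was within 2-fold in both Infl_Mono and Monocyte_1, and Il18bp was past 2-fold lower in Infl_Mono but within 2-fold in Monocyte_1. In macrophages 0 were higher (1.21%) and 4 lower (1.22%), Il15ra, Il18bp, Il27 and Il10. Medians over members and over all genes in macrophages were 1.39 and -0.02, 0.61 and -0.10, and -0.75 and 0.07 in the 3 comparisons.

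The cells that held the UMIs changed with the tumour. In NTT monocytes held most UMIs of 9 members, and DC3 those of Il12b. In RTT macrophages held most UMIs of all 10. In RTT_ROSA26 macrophages led for 9, with Il12b again in other cells, and in RTT_PTGS12KO macrophages led for 5, monocytes for 3 and other cells for 2, Il12b and Il12a, the latter through the 18 UMIs of 1 cDC2 cell. Weighting each cell equally, monocytes led for 7 members in RTT_PTGS12KO.

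For Il15, monocytes held 86.6% of the UMIs in NTT, 7.32% for RTT, 4.40% for RTT_ROSA26 and 42.5% for RTT_PTGS12KO, and macrophages 3.86%, 80.0%, 77.7% and 46.0%. For Il27, monocytes held 92.3%, 28.6%, 14.3% and 62.9%, a larger share than of Il15 in each tumour. For Ebi3 they held 84.8%, 7.34%, 1.07% and 39.2%, so in RTT p28 and its partner came from different mixes of cells. Il10 came from macrophages to 94.6% in RTT, 95.2% in RTT_ROSA26 and 82.6% in RTT_PTGS12KO, while in NTT, where it was low, 69.4% came from monocytes. NK cells held 14.4% of Tgfb1 UMIs in NTT.

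**Figure D4:**
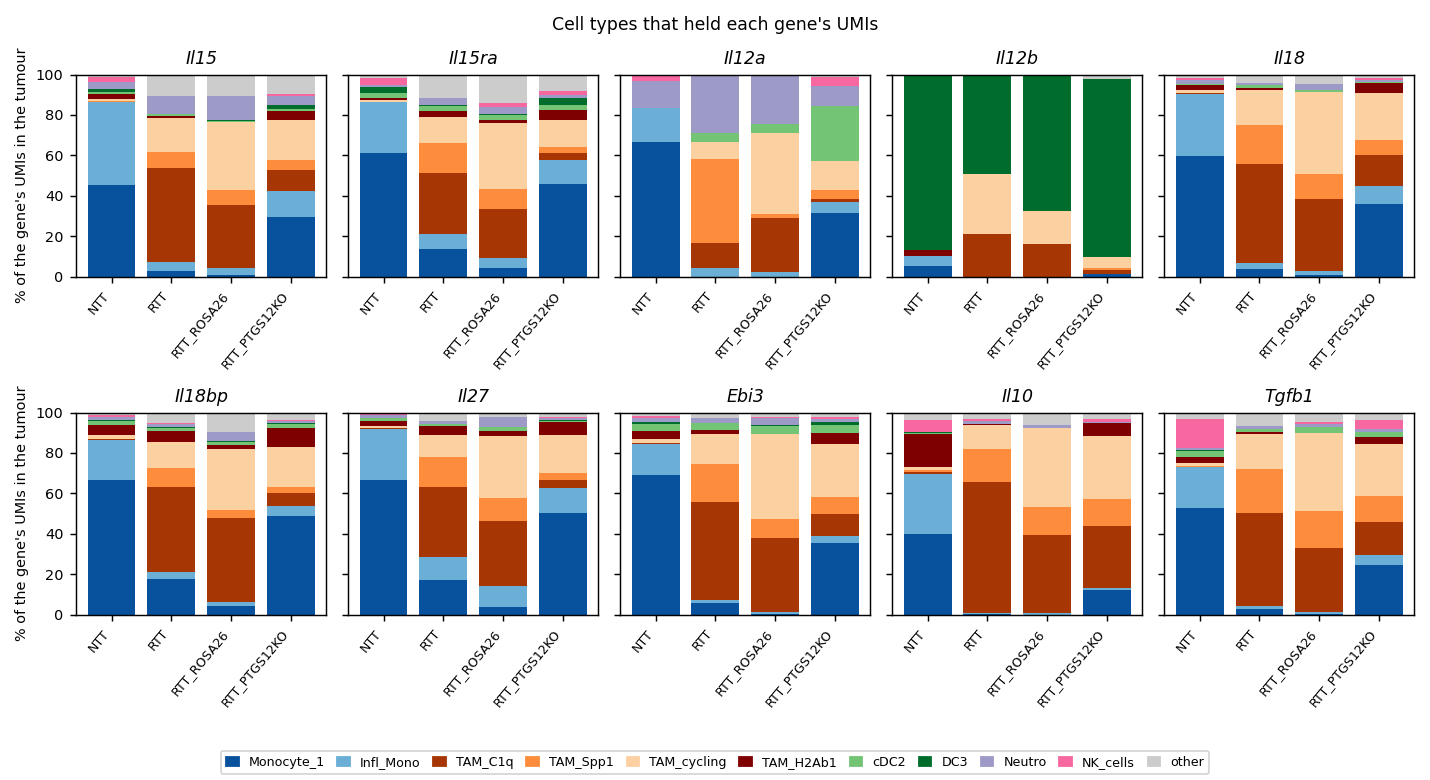
Percent of each member's UMIs in a tumour held by each cell type, as stacked bars with monocyte types in blue, macrophage types in orange to dark red and DC3 in dark green. For all members but Il12b, monocytes hold the larger part in NTT and macrophages in RTT and RTT_ROSA26, and RTT_PTGS12KO lies between, with 42.5% of Il15 UMIs in monocytes and 46.0% in macrophages.

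**Figure D5:**
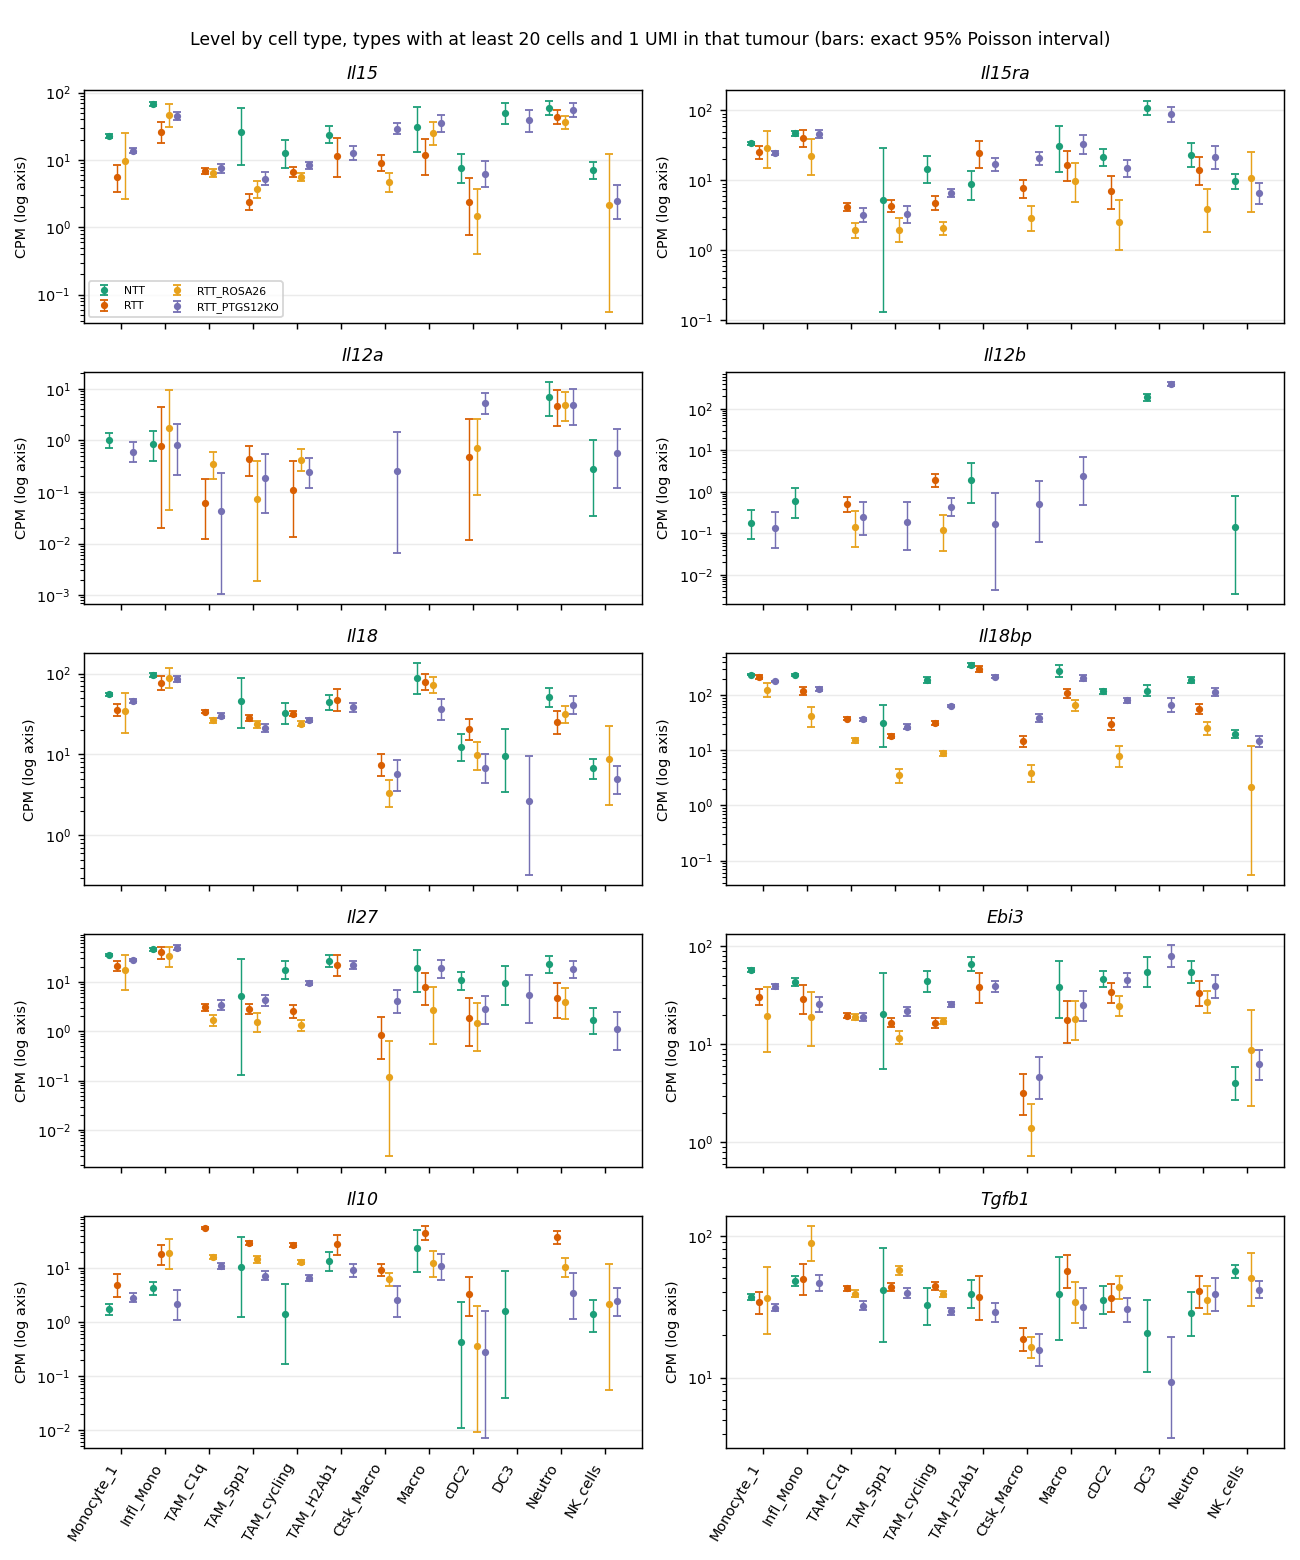
Level of each member in each cell type and tumour in CPM on a log axis with exact Poisson 95% intervals, for cell types with at least 20 cells and 1 UMI of the member in that tumour. Il15 is high in Infl_Mono and neutrophils, Il12b in DC3, Il10 in TAM_C1q of RTT (55.1 CPM), and Tgfb1 in all types.

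Over the 7 cell types with at least 20 cells in every tumour, the order of levels was set for each member by the mean over tumours. Il15 ran from neutrophils and Infl_Mono down to cDC2, and Il15ra from Infl_Mono and Monocyte_1 down. Between neighbours in these orders the ranges over the 4 tumours overlapped for every member, with the exception of the last step for Il18. Single steps of these orders are therefore not told apart by these tumours.

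Cells were also read for members that act as a pair. Over all 4 tumours, 142 of 33368 cells had a UMI of Il12a and 108 had one of Il12b, and 0 had both. Among the 196 DC3 cells, 59 had Il12b and 0 had Il12a. With so few cells holding either chain, the 0 shared cells do not show whether the chains are made by the same cells. Il27 was found in 3727 cells and Ebi3 in 8348, and 1340 had both. Of cells with Il27, 35.7% had Ebi3 in NTT, against 27.7% of the rest, 30.8% against 20.1% in RTT, 28.0% against 19.8% in RTT_ROSA26 and 38.4% against 26.6% in RTT_PTGS12KO. Cells with Il27 were deeper than the rest in each tumour, with median UMIs of 8228.5 against 7080.5, 13903 against 12558, 17121.5 against 13203 and 12811 against 12154.5. Il12a and Ebi3, the chains of IL-35, shared 52 cells, and the share with Ebi3 was higher in cells with Il12a than in the rest in 3 tumours but not in RTT (10.5% against 20.6%, with 2 shared cells).

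Il15 was found in 4060 cells, Il15ra in 4000 and both in 852. Of cells with Il15, 21.0% had Il15ra, against 10.7% of the rest, and in DC3 58.0% against 37.0%, in monocytes 29.0% against 20.0%. Il18 and its decoy shared 4989 cells, 49.9% of the 9996 cells with Il18 having Il18bp against 37.6% of the rest. Deeper cells are more likely to hold a UMI of both, and the part of depth in these shares was not tested.

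A list of 49 further genes of the same pathways was chosen for role. Summed over all cells, for NTT against RTT 17 of 46 tested were past 2-fold higher and 5 lower (8.48% and 11.9% of all genes), with a median log2 ratio of 0.45. With cell types at equal shares 5 were higher and 1 lower. Within monocytes 5 of 43 were higher and 3 lower (3.34% and 4.01% of all genes), and within macrophages 10 of 42 and 5 (6.48% and 6.65%). By role, over all cells, 8 of 12 receptors were higher and 1 lower, and 4 of 6 transcription factors higher and 1 lower, while 3 of 15 signalling genes were higher and 0 lower. For the knockout against its control, 12 of 45 were higher, 6 of them receptors, and 1 lower (4.53% and 3.8% of all genes), with a median of 0.33. With cell types at equal shares 3 were higher and 0 lower, and within macrophages 7 of 41 were higher and 1 lower (2.94% and 1.94%). Within monocytes 3 of 42 were higher and 2 lower, shares no larger than those of all genes (7.16% and 6.86%). For RTT_ROSA26 against RTT, 0 of 43 were higher and 4 lower (0.97% and 3.03% of all genes), with a median of -0.13, within monocytes 2 of 40 were higher and 3 lower (2.71% and 6.5%), and within macrophages 0 of 41 and 5 (1.21% and 1.22%).

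The largest ratios in NTT against RTT were those of receptors: Il2rb, the shared β chain for IL-2 and IL-15, at 5.40 (5.18 to 5.63), Il18r1, which binds IL-18, at 4.12, Il12rb2 at 3.85 and Il27ra at 3.74. NK cells, which numbered 709 in NTT and 13 in RTT, are known to express all of them. Other cells held some too: of Il12rb2, monocytes of NTT had 265 UMIs (5.14 CPM), NK cells 211 (29.5 CPM) and T_CD8 67 (42.9 CPM), and DC3 stood at 59.98 CPM. Within NK cells Il2rb was 543 CPM in NTT, 420 in RTT_ROSA26 and 481 in RTT_PTGS12KO, and Il18r1 was 88.0, 47.8 and 43.0, while RTT had too few NK cells for a level. The 5 lower genes were Itgav and Thbs1, which take part in releasing TGF-β, Ltbp1, which tethers its latent form, Tgfbr2, its receptor, and Maf, a transcription factor that drives Il10 in many cells. These calls are of the sum over all cells. Tgfbr2 stood at 29.0 CPM in NTT and 46.9 in RTT monocytes, and at 70.9 and 88.7 in macrophages, within 2-fold in both populations.

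For the knockout against its control, the largest were Il12rb1, a receptor chain for IL-12 and IL-23, at 4.01 (3.68 to 4.35), Il2rb at 3.14 and Irf1, a transcription factor of the interferon response, at 2.89, and Ltbp1 was the 1 lower. Il12rb1 was found in macrophages too, at 24.1 CPM in NTT, 2.25 for RTT, 0.602 for RTT_ROSA26 and 8.45 for RTT_PTGS12KO. Among the 4 lower in RTT_ROSA26 against RTT were Il12rb1 at -1.78, Irf1 at -1.68 and Il6 at -1.05.

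The genes whose level was most like that of a member were taken over 42 sums of a cell type in a tumour (Pearson r of log2(CPM + 1) among 8835 genes). These sums share tumours and depth, so r is a description. For Il15 they were Klf6 (0.88), the interferon-stimulated Rsad2 (0.86) and Resf1 (0.85), and for Il15ra Rnf31, Psme2 and Tapbpl (0.91 each). For Il18bp they were Trafd1 (0.95), B2m (0.94) and Gbp8 (0.93), and for Il27 Ifi211 (0.93), Dhx58 and Nampt (0.92 each). Psme2, Tapbpl and B2m serve antigen presentation on MHC class I, and Gbp8, Ifi211 and Dhx58 belong to interferon-induced families.

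For Il12b the nearest were Gm13546 (0.95), Il4i1 (0.91) and Cacnb3 (0.90), which lead DC3 with it. For Il18 they were Dennd1a (0.93), Lgals9 (0.92) and Rhbdf2 (0.91), and for Ebi3 Rab43 (0.93), Bcl2a1a (0.92) and E230029C05Rik (0.90). Il10 had lower values, with Tmem87b (0.84) and the macrophage gene Apoe and Slc38a7 (0.82 each). Tgfb1 had Fli1 (0.84), Bin2 and the leukocyte gene Cd53 (0.83 each). Il12a was too low for this measure.

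Cell types that the hosts should lack or that enter with blood were read beside these results. B cell genes were at most 0.15 CPM. The erythroid gene Hbb-bs stood at 80.1 CPM in NTT, 70.0 for RTT, 12.1 for RTT_ROSA26 and 92.2 for RTT_PTGS12KO, and the platelet gene Ppbp at 1.51, 50.02, 17.6 and 2.42. The platelet gene Gp9 had 1, 1, 0 and 1 UMIs. Ppbp is a leading gene of TAM_Spp1, and its part in these results was not tested. As a gauge of RNA from other cells, a UMI of C1qa was found in 25.4% of NK cells in NTT, 46.2% in RTT_ROSA26 and 35.0% in RTT_PTGS12KO.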

How the data were processed

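The authors deposited 1 matrix of UMI counts (raw counts, not normalized) for 33368 cells and 32285 genes from 4 CD45+ samples, with each cell's sample and cell type. Per the study's methods and the submitters' processing notes, samples were labelled with oligos, pooled and run as 3 droplet loads of a 3′ assay, counted with Cell Ranger on mm10, and cells with over 1000 genes and under 15% mitochondrial UMIs were kept and named in Seurat 4.3.0. The lowest number of genes in a cell was 1001. Doublets between samples were removed by the oligos; those within a sample were not, and an alternative left out the 5% of cells with the most UMIs. No barcode occurred in 2 tumours within a load (0 cells), and 98 barcode sequences occurred in over 1 load.

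Counts were summed per tumour and cell type or population and divided by total UMIs. Monocytes were Monocyte_1, Monocyte_3 and Infl_Mono, and macrophages TAM_C1q, TAM_Spp1, TAM_cycling, TAM_H2Ab1 and Ctsk_Macro. Ratios had no pseudocount and no test, with 1 sample per group. Total counts ranged from 69332486 to 146829369 UMIs per sample, and intervals cover counting error only. To compare shares of cells, cells were thinned to 3000 UMIs and shallower cells left out. Genes named were the 10 members, the 3 most alike per member, the 4 pathway genes with the largest ratio per comparison and the gauges of free RNA; the genes past 2-fold lower for NTT against RTT were named after their values were seen. Of the pathway genes this names, 1 is not reported here. The members, lists and alternatives were chosen with earlier results of these data known. Coordinates came from GENCODE on GRCm38 and promoters from RefSeq. Python 3.11.15, numpy 2.4.6, scipy 1.17.1, pandas 2.3.3, matplotlib 3.10.9 and edgeR 4.0.16 (TMM factors only) in R 4.3.3 were used, and the steps were tested on simulated data.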

Additional observations from a re-analysis of the deposited data

Results flagged for a closer look

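For 3 members a comparison went in opposite directions in monocytes and in macrophages, with both counting intervals off 0. The log2 ratio of Il15 for RTT_PTGS12KO against RTT_ROSA26 was -0.82 in monocytes and 0.68 in macrophages. The log2 ratio of Il18 for RTT_ROSA26 against RTT was 0.49 in monocytes and -0.41 in macrophages. In monocytes it ran from -0.0034 to 0.66 with a droplet load left out, so the opposite direction was not kept without each load. That of Tgfb1 in the same comparison was 0.90 in monocytes and -0.0705 in macrophages. With 1 sample per group these differences between populations were not tested. All 3 use the 144 monocytes of RTT_ROSA26, of which 86 were Infl_Mono, and within Infl_Mono alone the ratio of Il15 was -0.06, that of Il18 0.22 and that of Tgfb1 0.84, and within Monocyte_1 they were 0.51, -0.08 and 0.10.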

How the results depend on the processing

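No paired analysis was possible because no group held more than 1 sample. Of the members' log2 ratios under the alternatives, 691 stayed within the counting interval of the reported value, and 105 moved beyond it, besides 1 past 2-fold that changed sign, that of Il10 in monocytes for the knockout against its control, which ran from -2.43 to 0.60 with a load left out, the last without the third. Ratios within 2-fold changed sign too, among them for NTT against RTT Il12b (-0.25 with the stricter filter, -2.22 at equal shares) and Tgfb1 (-0.16 at equal shares), and with a load left out, in monocytes, Il10 (-2.53 to 0.98) and Il18 (-0.0034 to 0.66) for RTT_ROSA26 against RTT and Il15ra (-0.21 to 1.40) for the knockout. The cause was not tested where none is named. Cell types at equal shares, over types with at least 20 cells in both tumours, moved most counts past 2-fold in all cells: for NTT against RTT to 2 members higher and 2 lower and 5 pathway genes higher and 1 lower, for the knockout against its control to 3 members higher and 0 lower and 3 pathway genes higher and 0 lower, and for RTT_ROSA26 against RTT to 2 members lower and 1 pathway gene higher and 2 lower. A pseudocount of 1 CPM left 0 pathway genes lower for the knockout, and 2 members lower for RTT_ROSA26 against RTT in all cells and 2 in macrophages.

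In monocytes, which number 144 in RTT_ROSA26, counts moved by single genes. For the knockout, 2 members were higher under TMM factors, the stricter filter (over 1500 genes, under 10% mitochondrial UMIs), without the 5% of cells with the most UMIs and without the member's top cell in each tumour, an alternative chosen after seeing the data; 1 was lower under the last 3. For RTT_ROSA26 against RTT, 2 were lower under the stricter filter and without the top cell, and 2 higher without the top 5% and with each cell's CPM averaged. Leaving out a load gave 1 to 2 higher and 1 to 3 lower for the knockout, and 1 to 2 higher and 1 to 3 lower for RTT_ROSA26 against RTT. Summing each cell's CPM gave 1 member led by other cells in RTT, and 7 led by monocytes, 2 by macrophages and 1 by other cells in RTT_PTGS12KO. Without thinning, 3 members in place of 5 were in a larger share of RTT_ROSA26 than RTT monocytes.

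With genes of at least 10 CPM only, the background higher and lower was 7.44% and 6.66% for NTT against RTT in all cells, 1.85% and 1.48% in monocytes, and 5.35% and 3.54% in macrophages. It was 3.68% and 2.08%, 1.83% and 2.15%, and 2.37% and 0.974% for the knockout, and 0.504% and 1.09%, 1.86% and 1.85%, and 0.581% and 0.723% for RTT_ROSA26 against RTT. Depth limits Il12a and Il12b most, with under 350 UMIs in any tumour.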
